A study of Mus musculus with 10 samples.

Results

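Gene expression was compared between pancreas pieces of mice with 1 floxed allele of the insulin receptor gene Insr and pieces of mice with 0 floxed alleles. The comparison takes the 3 libraries labelled Insr Het (w/f) and the 3 labelled Insr WT (w/w) from the deposited table of raw counts, which makes 6 of the 10 libraries in all. Each library is 1 mouse and is named by its group and mouse number, as in WT-2404. Where 3 values are given for a group, WT values stand in the order WT-2404, WT-1860 and WT-2067, and Het values in the order Het-2066, Het-1770 and Het-2042. All were female mice aged 12 weeks, and RNA came from a piece of the pancreas tail. All groups carried Ptf1aCreER, a tamoxifen-inducible Cre recombinase made where the acinar gene Ptf1a is active, and the fluorescent reporter nTnG. One more element of the genotype, shared by all groups, is not reported here. The 4 libraries labelled Insr KO (f/f) had 2 floxed alleles and are used where they show how 1 floxed allele stands beside 2. A label counts 1 more WT mouse, which was not analysed here. By its title, the series concerns digestive enzymes and inflammation downstream of the acinar insulin receptor.

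Cre removes a floxed stretch of DNA in cells that make it, by design here the acinar cells. Cells of ducts, islets, vessels and connective tissue that never made Cre are expected to keep both copies of Insr. In which cells the stretch was removed was not measured here. The count per gene does not show which exons were read, so an Insr transcript that lacks the floxed stretch adds to the count like an intact one. Because whole tissue was used, fewer cells of a type and less RNA per cell cannot be told apart.

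The insulin receptor is a tyrosine kinase at the cell surface. It signals through adaptor proteins to PI3K and AKT, which turn on mTOR complex 1, a driver of protein synthesis and ribosome production, and hold back the FOXO transcription factors. Acinar cells release digestive enzymes into the gut, and their RNA is dominated by the transcripts of a few enzymes. The messenger RNAs of ribosomal proteins begin at a run of pyrimidines, the 5′ TOP tract, through which their translation responds to mTOR complex 1.

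The 6 libraries held between 11718559 (WT-1860) and 19024351 (Het-2042) gene counts, and no pair of one group agreed within sampling noise. One WT library, WT-2404, stood apart. Digestive enzymes took 15.9% of its gene counts, against 58.6% in WT-1860, 71.8% in WT-2067 and 71.6% to 76.4% in the Het libraries. The summed level of the 7 acinar markers was 19976 counts-per-million (CPM) in WT-2404, 158877 in WT-1860, 344971 in WT-2067 and 348341 to 515943 in Het, so the acinar label held in all 6 libraries but to different degrees. CPM here are relative to a library size scaled by TMM, which is set by the bulk of the genes. With enzymes so dominant, the CPM of a library need not add up to the nominal total. The share of reads assigned to no gene was 7.83% in WT-2404, 7.0% in WT-1860, 3.77% in WT-2067 and 2.62% to 5.14% in Het. The label for WT-2404 also words its RNA extraction differently from the other 9, and whether the extraction differed is not known. Each result below is given with WT-2404 and, where it matters, without it.

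The summed markers of fibroblasts, macrophages, ducts and lymphoid cells were separate between the groups as well, lower in Het. Those of adipocytes were separate and higher in Het, while those of islets overlapped. The 6 fibroblast markers summed to 4305, 1787 and 1209 CPM in WT-2404, WT-1860 and WT-2067, and to 485 to 942 CPM in Het. Macrophage markers summed to 914, 344 and 210 CPM in the same WT libraries and to 111 to 178 CPM in Het, and ductal markers to 1044, 635 and 484 CPM in WT and 224 to 372 CPM in Het. Lymphoid markers summed to 11.2 to 27.7 CPM in WT and 5.58 to 6.15 CPM in Het. Adipocyte markers summed to 31.9 to 41.0 CPM in WT and 53.3 to 69.1 CPM in Het. The 6 islet markers summed to 448, 5427 and 2895 CPM in WT and 4718 to 9350 CPM in Het. The red cell markers Hba-a1 and Hbb-bs were at 0 in all 6 libraries. The part of these cells in the differences below was not tested.

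Of 24421 genes in the table, 13688 had enough counts to be tested. At an adjusted p under 0.05 in edgeR's quasi-likelihood test, 0 genes (0%) differed between Het and WT. The smallest adjusted p was 0.183. The share of genes at an unadjusted p under 0.05 was 19.8%, with 1131 genes (8.26%) higher and 1583 (11.6%) lower in Het. The 3 Het libraries lay above all 3 WT libraries for 1541 genes (11.3%) and below all 3 for 1851 (13.5%), and this is what "separated" means from here on. DESeq2, which tests the same counts another way, called 400 genes (2.92%), 153 (1.12%) higher and 247 (1.8%) lower. Without WT-2404, edgeR again called 0 genes, with 586 (4.26%) higher and 497 (3.61%) lower at an unadjusted p under 0.05. DESeq2 then called 63 higher (0.458%) and 3 lower (0.0218%). These DESeq2 percentages are of all tested genes. DESeq2 gave an adjusted p to 11557 genes with all libraries and to only 956 without WT-2404, so the shares among those genes are larger. When WT-2067 was the library left out, 589 genes (4.16%) passed as higher and 569 (4.01%) as lower by edgeR. Among the separated genes, WT-2067 was the WT library nearest to Het for 1093 of the 1541 higher and 1459 of the 1851 lower genes, and WT-2404 the farthest for 1044 and 1416. Because 0 genes passed edgeR's threshold, the differences below are descriptions with their size and error.

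Insr, on chromosome 8 (3150922 to 3279649, GRCm38.p6), did not have a lower mean in the mice with 1 floxed allele. Its level was 21.0, 27.8 and 40.5 CPM in WT-2404, WT-1860 and WT-2067, and 43.1, 44.2 and 28.2 CPM in Het-2066, Het-1770 and Het-2042. The groups overlapped, at 29.8 ± 9.88 CPM in WT and 38.5 ± 8.92 CPM in Het (SD, n = 3 each). The log2 fold change was 0.37 with a standard error of 0.27, 0.18 without WT-2404 and 0.67 without WT-2067 (adjusted p of 0.437, 0.837 and 0.122 by edgeR). By an exact permutation test (two-sided) p was 0.2, where 3 against 3 mice cannot go below 0.1. The KO libraries held 22.7, 33.3, 35.4 and 34.6 CPM. Igf1r, the receptor for insulin-like growth factor 1 (chromosome 7, 67952257 to 68233668), read 17.7, 14.5 and 20.6 CPM in WT and 31.6, 22.1 and 21.5 CPM in Het. Its groups were separated, by less than 1 CPM at the closest. The log2 fold change was 0.51 with a standard error of 0.20, and the exact permutation p was 0.1.

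Among the 15 tested insulin and IGF receptors and adaptors, 2 were separated higher and 4 lower, beside 11.3% and 13.5% of all genes. The other one higher was Gab1, a docking protein, at 9.73 to 11.2 CPM in WT and 12.8 to 14.5 CPM in Het. The 4 lower genes included 2 that restrain the receptor. Ptpn1 encodes the phosphatase PTP1B and read 35.0, 25.7 and 19.6 CPM in WT against 11.8, 14.9 and 17.1 CPM in Het, a log2 fold change of -0.88 (SE 0.30). Enpp1 differed by -0.43 (-0.16 without WT-2404), the adaptor Shc1 by -0.33 and the adaptor Sh2b2, at about 2 CPM or less, by -2.07. The median over the 15 genes was -0.01, beside 0.00 over all genes. The adaptors Irs1 and Irs2 overlapped between groups, at 2.51 to 5.08 and 3.21 to 4.23 CPM in WT and at 2.70 to 4.79 and 3.63 to 7.98 CPM in Het.

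Of 24 genes for PI3K, AKT and mTOR proteins, 1 was separated higher and 2 lower, below the share over all genes. These were Mtor, the kinase itself, with a log2 fold change of 0.28 (SE 0.21), the PI3K regulatory subunit gene Pik3r2 at -0.43 (SE 0.18) and the mTOR partner gene Mlst8 at -0.51 (SE 0.31). Among 17 FOXO target genes, 15 had a positive fold change, but 3 were separated higher and 2 lower. Txnip, an inhibitor of glucose uptake, was the most abundant of them. It read 228, 261 and 462 CPM in WT and 1024, 558 and 668 CPM in Het, a log2 fold change of 1.24 (SE 0.50). Sesn1, a restraint on mTOR complex 1, read 23.0, 31.2 and 47.2 CPM in WT and 57.8, 74.8 and 62.5 CPM in Het. Klf15 was separated too, at 3.61 CPM in WT-2404, 37.0 and 56.5 CPM in the other WT mice and 56.8 to 75.7 CPM in Het, so the gap to WT-2067 was narrow. The growth arrest gene Gadd45a lay the other way, at 7.57, 6.23 and 4.16 CPM in WT and 1.93, 1.49 and 2.64 CPM in Het, and Ccng2 differed by -0.66. The separated FOXO target genes therefore lay on both sides. Over all genes 11.3% were separated higher and 13.5% lower, so these counts do not set the list apart. Of the 14 members with a RefSeq promoter, 2 (Sesn1 and Txnip) held the FOXO motif TGTTTAC on either strand, beside 4.05% of all 27025 promoters of 300 bases.

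Of 26 insulin-responsive lipid synthesis genes, 1 was separated higher and 2 lower, below the shares of 11.3% and 13.5% over all genes. The median log2 fold change was -0.04. The sterol regulator Srebf2 read 29.8, 32.5 and 23.9 CPM in WT and 17.9, 22.2 and 22.8 CPM in Het. The cholesterol synthesis gene Hmgcs1 differed by -0.54 (SE 0.18) and the later enzyme Sqle by 0.30 (SE 0.23). Gpam, which starts triglyceride synthesis, had a log2 fold change of 1.31 (SE 0.40) but overlapped between groups, at 6.25, 6.40 and 17.4 CPM in WT and 36.2, 21.7 and 15.8 CPM in Het.

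**Figure D1:**
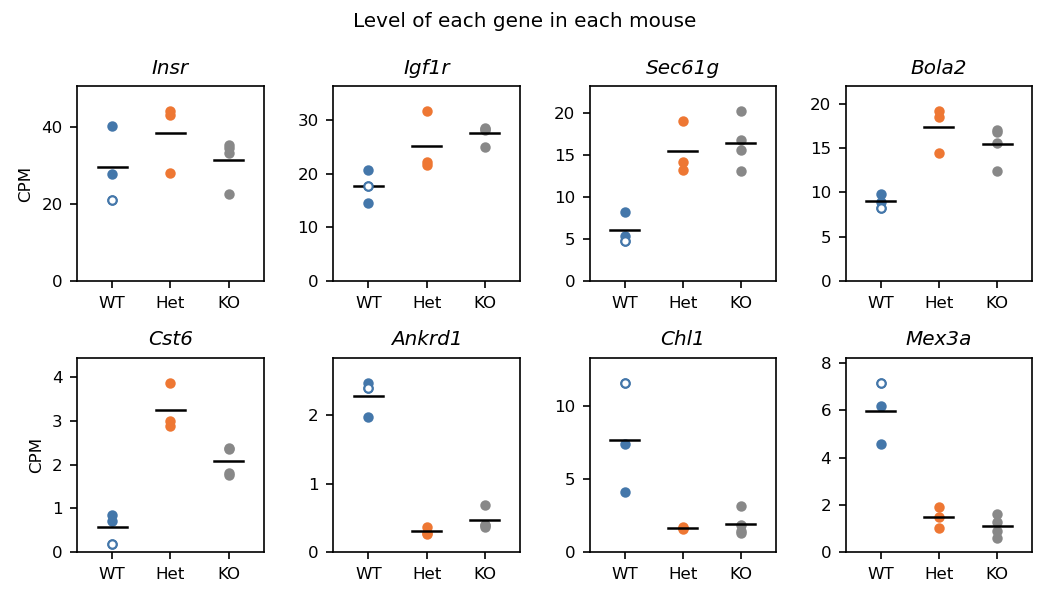
Level in CPM (vertical axes, from 0) of 8 genes in each mouse, by group (horizontal axes). Points are mice, horizontal bars are group means and the open circle is WT-2404. Insr overlaps between WT and Het, while for the other 7 genes the 3 Het points lie to one side of the 3 WT points.

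The cytosolic ribosomal protein genes were the list in which the groups were most often separated. Of 81 tested genes, 77 had a positive fold change and 76 were separated higher in Het, beside 11.3% of all genes, and 0 were separated lower. At an unadjusted p under 0.05, 70 were higher by edgeR, and DESeq2 called 58. The median log2 fold change was 0.88, and the separated genes ranged from 0.51 to 1.26. Without WT-2404 the median was 0.70. Then 56 had an unadjusted p under 0.05 by edgeR, beside 4.26% of all genes, and 48 of DESeq2's 63 higher calls were ribosomal protein genes. That DESeq2 fit gave an adjusted p to 956 genes only, the more abundant ones. The smallest edgeR adjusted p in the list was 0.183.

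Sequences around the annotated starts of 4 of these genes are shown because their RNAs begin at the pyrimidine tract described above. They run 5′ to 3′ on the gene's strand, from 20 bases before the RefSeq start to 19 bases after it (GRCm38.p6), and capitals mark a tract of C followed by 4 or more pyrimidines that begins within 5 bases of the start.
Rps6, chr4:86857348-86857387, minus strand: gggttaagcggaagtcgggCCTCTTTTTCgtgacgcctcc
Rps18, chr17:33955646-33955685, minus strand: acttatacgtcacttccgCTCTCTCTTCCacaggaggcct
Rpl12, chr2:32961692-32961731, plus strand: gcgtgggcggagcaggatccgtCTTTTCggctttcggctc
Rpl35, chr2:39005112-39005151, minus strand: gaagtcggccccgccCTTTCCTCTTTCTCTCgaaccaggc

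Such a tract was found in 30 of the 59 ribosomal protein genes with a promoter in the RefSeq table (50.8%), and in 24.0% of the 10879 tested genes with one. The median fold changes were alike with and without such a match. Ribosomal protein genes with the tract had a median log2 fold change of 0.91 and those without it 0.89. Among all other tested genes the median was 0.00 in the 2578 with a tract and 0.00 in the 8242 without. The match was sought only near the annotated start, so a gene without it may still carry the tract. RNA counts do not measure translation, and whether the difference depends on the tract was not tested.

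Rps6, whose protein is phosphorylated downstream of mTOR complex 1, read 85.5, 103 and 164 CPM in WT-2404, WT-1860 and WT-2067. It read 325, 224 and 217 CPM in Het-2066, Het-1770 and Het-2042, and 229 to 264 CPM in the 4 KO libraries. The log2 fold change of Het against WT was 1.12 (SE 0.30), and 0.94 without WT-2404. Rpl32, of the large subunit, had the largest difference among the separated genes, at 170, 318 and 443 CPM in WT and 993, 602 and 633 CPM in Het. Rps25, of the small subunit, read 81.4, 129 and 172 CPM in WT and 377, 258 and 251 CPM in Het. In each of these 3 genes WT-2404 was lowest, WT-2067 was the highest WT mouse and Het-2066 was the highest of the 6. Rpl35 had a log2 fold change of 1.22, Rpl12 of 1.11, Rpl39 of 1.0 and Rps18 of 0.98.

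The 5 tested genes that were not separated were Rpl29, Rpl30, Rpl34, Rps27 and Rps4l. Rpl29 read 37.5, 44.0 and 61.6 CPM in WT and 64.3, 78.8 and 27.8 CPM in Het. Rpl30, Rpl34 and Rps27 stood at 1.65 CPM or less in all 6 libraries, and Rps4l read 3.98 to 7.43 CPM in WT and 3.51 to 5.96 CPM in Het. Many of these genes have near-identical copies elsewhere in the genome, which can take or lose reads, and Rpl26 is listed at 0 in the 6 libraries.

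Over the 77 ribosomal protein genes above 10 CPM in each of the 6 libraries, the median log2 level against the gene's own mean was -0.88, -0.40 and -0.06 in the WT libraries. The medians were 0.64 in Het-2066, 0.34 in Het-1770 and 0.41 in Het-2042, and 0.39 to 0.52 in the KO libraries. As a share of all gene counts outside the enzyme list, ribosomal protein genes took 4.21%, 5.39% and 5.66% in WT and 8.81%, 6.52% and 7.67% in Het. The separation therefore also holds in a share that does not depend on scaling factors.

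**Figure D2:**
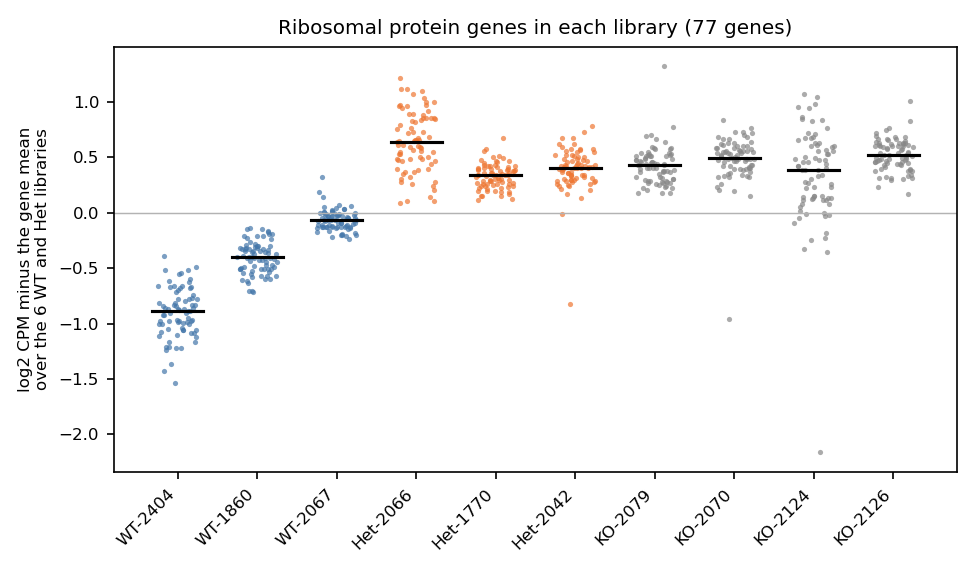
Log2 CPM of 77 cytosolic ribosomal protein genes in each library, minus each gene's mean over the 6 WT and Het libraries (vertical axis), by library (horizontal axis). Dots are genes and black bars are medians, which run from -0.88 to -0.06 in WT and from 0.34 to 0.64 in Het.

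Transcript length moved with the fold changes over all genes. The median log2 fold change was 0.23 for transcripts up to 500 nt, 0.13 from 500 to 1000 nt, 0.05 from 1000 to 2000 nt and -0.10 above 5000 nt. Ribosomal protein genes are short, with medians of 0.94, 0.89 and 0.84 in the first 3 of these classes. Genes outside the ribosomal and enzyme lists of up to 1000 nt and at least 50 CPM numbered 176, with a median of 0.32, and 41 of them (23.3%) were separated higher. Longer genes at this level outside the ribosomal list, enzymes included, had medians of 0.32 from 1000 to 2000 nt and 0.33 from 2000 to 3000 nt. Of these, 22.1% and 20.5% were separated higher. The medians were 0.22 from 3000 to 5000 nt (10.2% separated higher) and -0.13 above 5000 nt (3.39%). The part of transcript length in the ribosomal protein difference was not tested beyond these values.

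Genes that work beside the ribosome were also more often higher, where 11.3% of all genes were separated higher and 13.5% lower. Of 28 translation factor genes, 27 had a positive fold change and 11 were separated higher, with a median of 0.54. Eef1b2, an elongation factor subunit, read 134, 182 and 270 CPM in WT and 485, 363 and 360 CPM in Het. Among 14 host genes of small nucleolar RNAs, 4 were separated higher and 1 lower. Of 29 translocon and secretory entry genes, which carry new proteins into the endoplasmic reticulum, 27 had a positive fold change and 8 were separated higher, with a median of 0.51, and 0.34 without WT-2404.

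Sec61g, a subunit of that translocon (chromosome 11, 16501638 to 16508484), had the smallest p of all genes higher in Het. It read 4.78, 5.30 and 8.21 CPM in WT and 19.0, 13.2 and 14.1 CPM in Het, with 517 and 589 counts in all. The log2 fold change was 1.35 (SE 0.25), and 1.2 without WT-2404. Srp9, of the signal recognition particle, read 16.5, 39.0 and 44.1 CPM in WT and 83.6, 64.3 and 70.3 CPM in Het. In both genes the 3 Het mice lay above the highest WT mouse, WT-2067. Sec61g has near-identical copies, so its reads are uncertain to that extent.

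Next by p came Bola2 and Cst6. Bola2, an iron-sulfur cluster protein (chromosome 7, 126696000 to 126696693), read 8.22, 9.84 and 8.88 CPM in WT and 19.1, 14.4 and 18.5 CPM in Het, a log2 fold change of 0.95 (SE 0.19). The 3 WT mice lay close together for this gene, with WT-2404 beside the others. Cst6, a cystatin that inhibits cathepsins (chromosome 19, 5344705 to 5349574), rested on 38 counts in WT and 123 in Het. It read 0.184, 0.711 and 0.857 CPM in WT and 3.86, 2.98 and 2.88 CPM in Het, a log2 fold change of 2.57 (SE 0.52). The other 7 of the 10 higher genes with the smallest p were Mcee (0.99), Ddt (1.03), Emc6 (1.07), Mpc2 (0.90), Mrpl15 (0.99), Asb11 (2.48) and Ndufb2 (0.88), each with its log2 fold change. Mcee, Mpc2, Mrpl15 and Ndufb2 encode mitochondrial proteins.

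Digestive enzyme transcripts were lowest in WT-2404, and the other WT mice differed among themselves. The enzyme share of gene counts averaged 48.8 ± 29.2% in WT and 73.4 ± 2.67% in Het (SD, n = 3 each). The exact permutation p was 0.2. The difference of 24.6 percentage points was 8.16 without WT-2404. The share in WT-2067, 71.8%, lay above that in Het-2066, 71.6%. All 28 tested enzyme genes had a positive fold change, with a median of 1.23, and 8 were separated higher, beside 11.3% of all genes. Leaving out WT-2404 put the median at 0.71, and leaving out WT-2067 put it at 2.14. One of the 28, Amy2a5, had 0 counts in WT and 30 in Het, and the median is 1.23 also with this gene at the lower bound that 3 counts over the WT group allow.

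Cela1, a chymotrypsin-like elastase, had the largest fold change of the separated genes above 5 CPM. It read 753, 27185 and 55124 CPM in WT and 100888, 98334 and 59082 CPM in Het, a log2 fold change of 1.64 with a standard error of 1.09, and 1.07 without WT-2404. Pnlip, pancreatic lipase, read 1851, 37228 and 96271 CPM in WT and 110583, 139994 and 118057 CPM in Het. Spink1, which inhibits trypsin inside the acinar cell, read 182, 660 and 988 CPM in WT and 1412, 1579 and 1346 CPM in Het, and is among the 63 genes DESeq2 called higher without WT-2404. Ctrb1, the gene with the most counts, overlapped between groups, at 14528, 65748 and 136058 CPM in WT and 82558, 192019 and 138499 CPM in Het. Cela2a and Cpa1, also among the 5 genes with the most counts, overlapped too. Ctrc, chymotrypsin C, read 9009 CPM in Het-2066 and between 1.47 and 252 CPM in the other 5 mice, so its mean difference rests on 1 library.

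The make-up of the enzyme counts, given as shares of the enzyme counts alone, differed most in WT-2404, the library with the lowest enzyme share. Trypsinogens took 26.2%, 16.1% and 15.9% of the enzyme counts in WT and 14.4%, 15.4% and 15.2% in Het, so the groups did not overlap (exact permutation p = 0.1, 0.233 after adjustment over 7 classes). Chymotrypsins took 33.0%, 21.2% and 20.7% in WT and 13.7%, 19.7% and 20.6% in Het, with the same p and a gap of about 0.1 points. Elastases took 5.11% in WT-2404 and 18.5% to 27.1% in the other 5 mice. Ribonuclease and kallikrein together took 3.34%, 3.50% and 3.21% in WT and 2.82%, 3.04% and 3.13% in Het. Carboxypeptidases, lipases and amylases overlapped, and no class passed the adjusted threshold, which 3 against 3 mice could not reach.

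**Figure D3:**
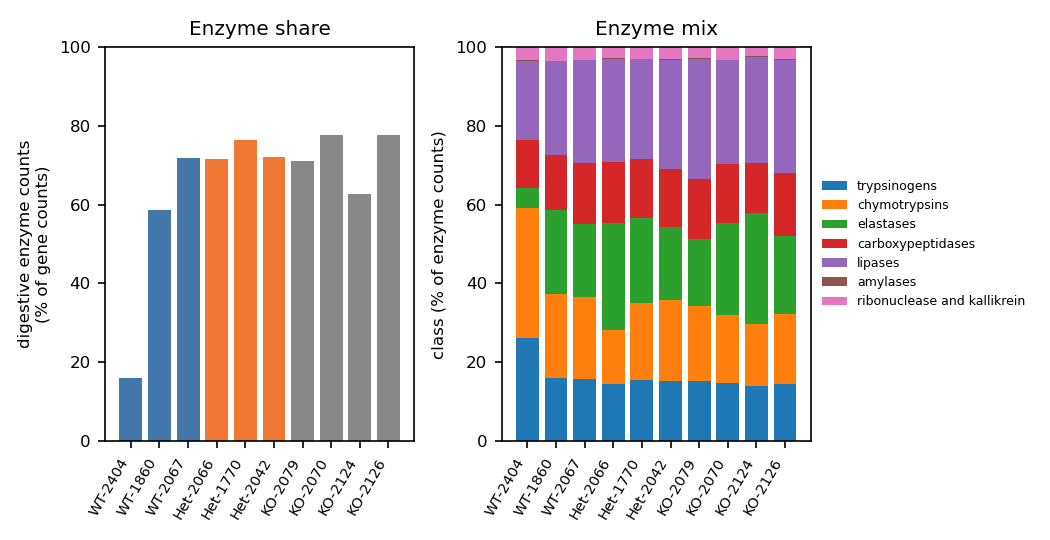
Left, digestive enzyme counts as a percentage of gene counts in each library; right, the 7 enzyme classes as percentages of the enzyme counts. Blue bars are WT, orange Het and grey KO in the left panel. The bar of WT-2404 stands at 15.9%, and its elastase part in the right panel is the smallest.

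Of 24 genes of acinar identity and secretion, 5 were separated higher and 1 lower, with a median of 0.66, 0.36 without WT-2404 and 1.29 without WT-2067. The acinar factors Ptf1a and Rbpjl overlapped, and both were lowest in WT-2404, at 4.54 and 11.3 CPM. Of 25 genes of endoplasmic reticulum stress and folding, 8 were separated higher and 1 lower, with a median of 0.58, 0.37 without WT-2404 and 0.89 without WT-2067. Pdia2, a pancreatic disulfide isomerase, read 75.6, 858 and 1779 CPM in WT and 3165, 2647 and 2103 CPM in Het. Sdf2l1, a chaperone partner, had a log2 fold change of 0.93 (SE 0.31). Tmed6 (1.54), Ttr (1.58) and Gal (1.53) complete the 5 genes above 5 CPM with the largest positive log2 fold change, and all were lowest in WT-2404. Without it Tmed6 stood at 0.99, Ttr at 1.13 and Gal at 0.95.

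The series title names inflammation, and the inflammatory mediator genes were lower in Het. Of 24 tested, 23 had a negative fold change and 12 were separated lower, beside 13.5% of all genes. The median was -1.29, and -1.03 without WT-2404. Il33, an alarm cytokine held in nuclei, read 20.7, 20.7 and 14.3 CPM in WT and 7.10, 9.60 and 8.71 CPM in Het, a log2 fold change of -1.13 (SE 0.28). Socs3, a feedback inhibitor of cytokine signalling, read 16.7, 20.7 and 14.0 CPM in WT and 6.93, 8.39 and 7.24 CPM in Het, a log2 fold change of -1.19 (SE 0.29), and -1.19 without WT-2404. For Socs3 the highest mouse was WT-1860, and for Il33 WT-2404 and WT-1860 lay together. Lcn2, an iron-binding acute phase protein, read 79.5, 20.9 and 21.5 CPM in WT and 6.05, 8.39 and 9.63 CPM in Het.

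Genes of immune cells lay the same way. All 21 macrophage and myeloid genes had a negative fold change and 16 were separated lower, beside 13.5% of all genes. The median was -1.70, and -0.88 without WT-2404. C1qa, a complement subunit made by macrophages, read 231, 89.6 and 55.5 CPM in WT and 24.4, 40.9 and 50.5 CPM in Het. The chemokine gene Ccl8 (-2.83), the lectin gene Fcna (-2.71) and Wfdc17 (-2.27) are among the 5 genes above 5 CPM with the most negative log2 fold change, with Timp1 and Lcn2. Their levels were highest in WT-2404, at 92.1, 95.1 and 76.6 CPM, and at most 24.8, 15.6 and 16.9 CPM in the other WT mice. Without WT-2404 the fold changes were -1.53 for Ccl8, -1.08 for Fcna and -0.89 for Wfdc17. The neutrophil genes S100a8 and S100a9 stood at 31.9 and 49.6 CPM in WT-2404 and at 4.38 CPM or less in the other 5 mice, so their difference rests on 1 library. Of 21 lymphoid genes, all had a negative fold change and 10 were separated lower, beside the same 13.5% of all genes. Cd79a, part of the B cell receptor, read 4.14, 9.13 and 4.35 CPM in WT and 1.93, 1.21 and 1.04 CPM in Het, and Jchain, which joins antibodies, read 83.0, 29.7 and 39.3 CPM in WT and 19.6, 9.60 and 9.14 CPM in Het.

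Connective tissue genes showed an uneven pattern. All 28 fibroblast and matrix genes had a negative fold change and 18 were separated lower, beside 13.5% of all genes. The median was -1.39, and -0.91 without WT-2404. Col1a1, a chain of type I collagen, read 1092, 457 and 266 CPM in WT and 56.4, 153 and 193 CPM in Het, a log2 fold change of -2.17 (SE 0.68), and -1.40 without WT-2404. Timp1, an inhibitor of matrix proteases, read 53.8, 28.5 and 9.43 CPM in WT and 5.44, 5.12 and 4.66 CPM in Het. The matrix genes Fn1 (-2.01), Lox (-1.93) and Sparc (-1.55) were separated too, at -1.26, -1.0 and -0.92 without WT-2404. Dcn, which encodes the collagen-binding proteoglycan decorin and marks resident fibroblasts, read 215, 168 and 159 CPM in WT and 175, 190 and 162 CPM in Het. The groups overlapped for Dcn, and also for Timp2, Dpt and Pdgfra, where WT-2404 was the highest mouse. These 4 overlapping genes were picked after their values were seen.

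**Figure D4:**
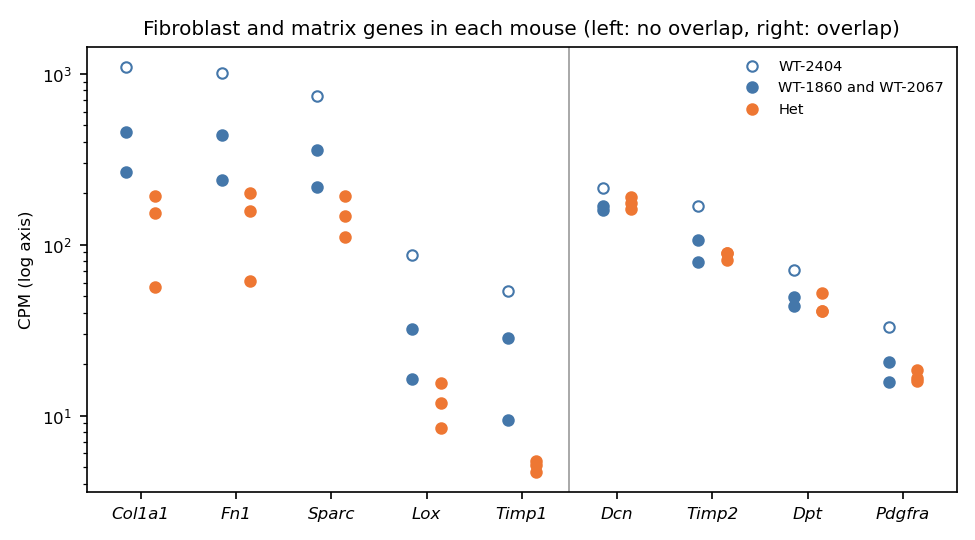
Level in CPM (vertical axis, log scale) of 9 fibroblast and matrix genes in each WT (blue) and Het (orange) mouse, with WT-2404 as the open circle. To the left of the line are genes whose groups do not overlap, such as Col1a1 at 266 CPM or more in WT and 193 CPM or less in Het. To the right are genes whose groups overlap, such as Dcn at 159 to 215 CPM in WT and 162 to 190 CPM in Het.

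Serpinh1, the chaperone of collagen, and the cytoskeletal genes Flna and Actn1 were the 3 genes DESeq2 called lower without WT-2404. Actn1 read 83.3, 65.9 and 67.2 CPM in WT and 37.0, 39.9 and 47.4 CPM in Het. The mesenchymal genes Cdh11 (-1.58), Prrx1 (-1.30), Adam12 (-3.11) and Tuba1a (-1.14) were among the 10 lower genes with the smallest p. With them stood Dio3 (-3.41), Rgs18 (-2.55) and Mcm5 (-2.34), of which Dio3 rested on 17 counts over the 3 Het libraries. Without WT-2404 the log2 fold changes were -1.03 for Cdh11, -0.92 for Prrx1, -2.29 for Adam12 and -0.81 for Tuba1a. They were -3.00 for Dio3, -2.29 for Rgs18 and -1.58 for Mcm5. Adam12 read 11.6 CPM in WT-2404, and 4.37 and 2.88 CPM in WT-1860 and WT-2067.

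Ductal and metaplasia genes, which acinar cells can turn on when they lose their identity, were lower in 24 of 27 cases. Of these 27, 13 were separated lower and 1 higher, beside 13.5% and 11.3% of all genes. The median was -0.97, and -0.90 without WT-2404. Sox9, a transcription factor of ducts and progenitors, read 21.9, 26.7 and 26.5 CPM in WT and 15, 15.8 and 16.9 CPM in Het, a log2 fold change of -0.65 (SE 0.24). WT-2404 was the lowest WT mouse for Sox9. Krt7, a duct keratin, read 131, 90.7 and 59.8 CPM in WT and 20.6, 39.5 and 44.8 CPM in Het. Cldn4, a tight junction protein, read 39.9, 32.2 and 15.9 CPM in WT and 4.21, 9.60 and 10.1 CPM in Het, and Cd44, a surface receptor for hyaluronan, 83.5, 60.8 and 36.3 CPM in WT and 9.73, 13.8 and 23.6 CPM in Het. Onecut2 (-2.19) and Spp1 (-1.47) lay the same way. Tff2, a trefoil peptide, was the separated gene on the other side, at 188, 917 and 1272 CPM in WT and 1758, 1862 and 1741 CPM in Het.

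Ankrd1, a nuclear ankyrin protein and target of YAP and TEAD (chromosome 19, 36111965 to 36119844), had the smallest p of all genes. It read 2.39, 2.46 and 1.96 CPM in WT and 0.263, 0.280 and 0.368 CPM in Het, with 220 counts in WT and 12 in Het. The log2 fold change was -2.86 (SE 0.49), and -2.79 without WT-2404. The 3 WT mice lay close together, and the KO mice read 0.371 to 0.691 CPM. YAP and WWTR1 are co-activators that bind TEAD transcription factors when cells are stretched or injured. Of 27 genes in the YAP and TEAD list, 7 were separated lower and 2 higher, beside 13.5% and 11.3% of all genes. The median was -0.48, and -0.22 without WT-2404. Separated lower were also Cyr61 (-1.05, the matrix protein CCN1), Ajuba (-1.12), F3 (-1.15, tissue factor) and Myof (-1.25). Ctgf read 39.2, 38.9 and 24.7 CPM in WT and 11.9, 15.4 and 27.8 CPM in Het, so its groups overlapped through Het-2042. Tead2 and Gadd45b were separated higher, at log2 fold changes of 0.90 and 1.36. Without WT-2404 Tead2 stood at 0.50, and among the lower genes Myof stood at -0.78.

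Stretches of the promoters of 3 of these genes are shown because they hold the TEAD motif, GGAATG on either strand, in capitals. They run 5′ to 3′ on the gene's strand, within 250 bases before the RefSeq start (GRCm38.p6).
Ankrd1, chr19:36119947-36120069, minus strand: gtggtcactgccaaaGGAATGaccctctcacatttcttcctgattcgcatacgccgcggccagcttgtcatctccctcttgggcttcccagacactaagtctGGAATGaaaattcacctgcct
Cyr61, chr3:145650068-145650103, minus strand: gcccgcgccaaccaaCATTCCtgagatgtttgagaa
Ajuba, chr14:54577805-54577862, minus strand: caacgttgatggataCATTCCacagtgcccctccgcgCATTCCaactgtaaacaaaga

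The motif was found in 10 of the 19 list genes with a RefSeq promoter (52.6%) and in 16.6% of all 27025 promoters of 300 bases. Of the 10 with the motif, 8 had a negative fold change and 4 were separated lower, and of the 9 without it 6 had a negative fold change. A match of 6 letters is a description of the window and shows no binding.

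Chl1 and Mex3a followed Ankrd1 among the lower genes with the smallest p. Chl1, a cell adhesion molecule (chromosome 6, 103510584 to 103733038), read 11.6, 7.43 and 4.10 CPM in WT and 1.75, 1.68 and 1.60 CPM in Het, a log2 fold change of -2.21 (SE 0.42). Mex3a, an RNA-binding protein of progenitor cells (chromosome 3, 88531946 to 88541394), read 7.16, 6.18 and 4.59 CPM in WT and 1.05, 1.49 and 1.90 CPM in Het, a log2 fold change of -2.0 (SE 0.39). In both, WT-2067 was the WT mouse nearest to Het.

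Among 18 genes that report ERK signalling, 2 were separated lower and 1 higher, below the shares of 13.5% and 11.3% over all genes. Etv4 read 5.28, 4.65 and 2.57 CPM in WT and 0.526, 1.02 and 2.09 CPM in Het, and Phlda1 read 18.0, 21.1 and 9.43 CPM in WT and 4.65, 7.73 and 8.90 CPM in Het. Myc, a growth regulator, lay on the other side, at 12.3, 20.4 and 23.1 CPM in WT and 36.6, 25.4 and 24.1 CPM in Het. The AP-1 motif TGANTCA, on either strand, was in 0 of the 11 list promoters and in 8.97% of all promoters.

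Cell cycle genes were lower in all 22 cases, with 17 separated, beside 13.5% of all genes separated lower. The median was -1.68, and -0.93 without WT-2404. Mki67, a marker of dividing cells, read 53.8, 22.1 and 12.1 CPM in WT and 8.77, 7.83 and 8.96 CPM in Het. Mcm3, a subunit of the replication helicase, read 15.1, 7.49 and 5.63 CPM in WT and 2.72, 2.70 and 2.39 CPM in Het. The Het mice lay within a narrow range in both genes, while WT-2404 was the highest WT mouse and WT-2067 the lowest. Which cells divided cannot be told from whole tissue.

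Islet genes had a positive fold change in 26 of 27 cases, but 2 were separated higher, below the 11.3% over all genes. The median was 1.16, and 0.68 without WT-2404. Ins2, which encodes insulin in beta cells, read 213, 2815 and 1503 CPM in WT and 3920, 2612 and 4932 CPM in Het, so Het-1770 lay below WT-1860. Scg2, a granin of hormone granules, and G6pc2, a phosphatase of beta cells, were the separated ones, with log2 fold changes of 1.37 and 1.23, and 0.89 and 0.72 without WT-2404. Of 12 adipocyte genes, 4 were separated higher and 1 lower, beside 11.3% and 13.5% of all genes. Cfd, which encodes adipsin, read 2.27, 0.765 and 3.67 CPM in WT and 7.89, 4.01 and 11.3 CPM in Het, and the fatty acid carrier gene Fabp4 read 37.6, 31.0 and 29.6 CPM in WT and 52.4, 46.7 and 54.4 CPM in Het. Of 14 endothelial genes, with a median of 0.20 and of 0.05 without WT-2067, 2 were separated higher, near the 11.3% over all genes. These were the receptors for vascular endothelial growth factor, Kdr, at 13.8, 20.2 and 11.8 CPM in WT and 25, 23.5 and 23.6 CPM in Het, and Flt1, with a log2 fold change of 0.74 (SE 0.32). WT-2404 lay between the other WT mice for Kdr and was the WT mouse nearest to Het for Fabp4. Of 5 nerve genes 1 was separated lower, beside 13.5% of all genes, and the 2 tested red cell genes overlapped.

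**Figure D5:**
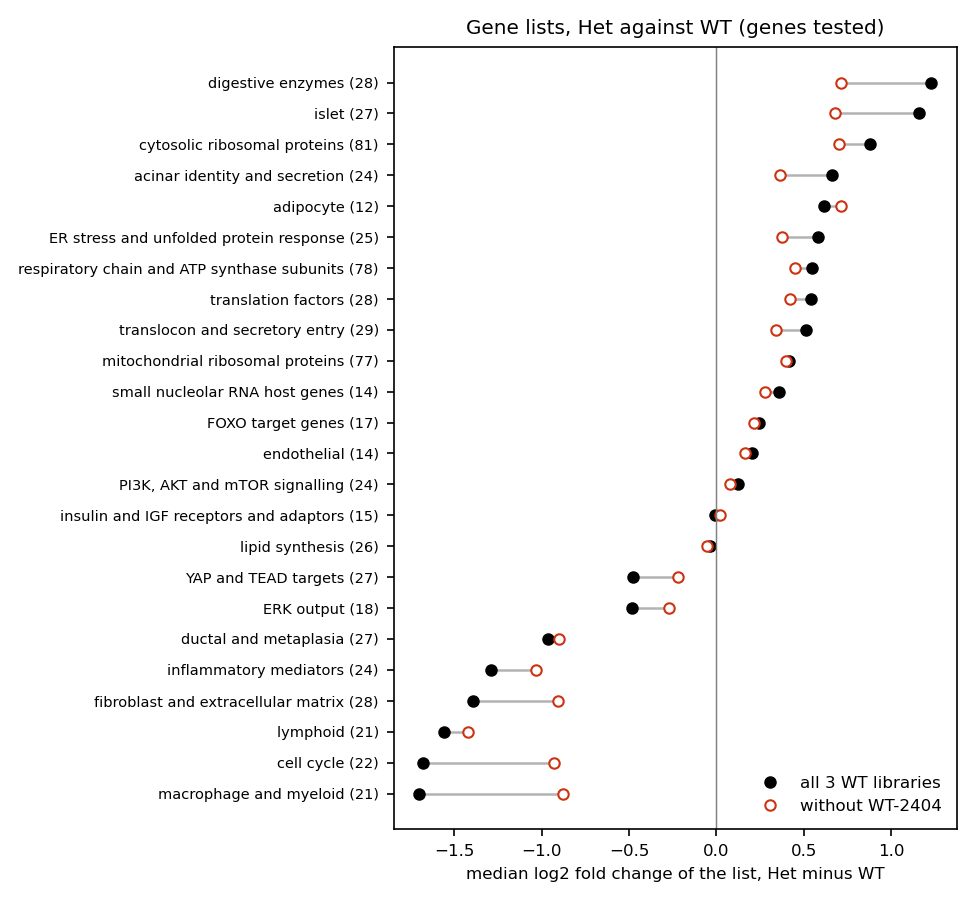
Median log2 fold change of Het against WT (horizontal axis) for each gene list with at least 10 tested genes (vertical axis, number tested in brackets). Filled points use all 3 WT libraries and open points leave out WT-2404. Without WT-2404 the medians of the macrophage list (-1.70 to -0.88) and the cell cycle list (-1.68 to -0.93) lie nearer to 0, while the ductal list (-0.97 to -0.90) changes little.

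Set beside the mice with 2 floxed alleles, the Het mice showed no gene past the threshold. In the test of KO against Het, 0 genes passed the adjusted threshold in edgeR (0%) and 0 in DESeq2, the smallest adjusted p was 0.9999, and 103 genes (0.752%) had an unadjusted p under 0.05. The median log2 difference of KO from Het was -0.02 for ribosomal protein genes, -0.05 for digestive enzymes, -0.08 for fibroblast genes, 0.06 for inflammatory mediators, 0.00 for myeloid genes and -0.14 for ductal genes, beside 0.01 over all genes. It lay farther from 0 in some other lists. KO had the lower fitted level in all 27 islet genes, with a median of -0.36, and in all 6 Reg genes, with a median of -0.89. It was also lower in 22 of 26 lipid synthesis genes, with a median of -0.15. Over all genes KO was higher for 7041 and lower for 6647. The mice overlapped in mean log2 CPM of the islet list, at 4.57 to 5.39 in Het and 4.26 to 5.26 in KO. The Reg list overlapped too, at 10.4 to 11.6 in Het and 8.58 to 11.0 in KO. No islet or Reg gene had an unadjusted p under 0.05 in edgeR. KO had the higher fitted level in 16 of 21 lymphoid genes, with a median of 0.50, and in 18 of 22 cell cycle genes, with a median of 0.15. Among KO mice both lists were highest in KO-2124. Lymphoid genes summed to 69.0 CPM there, 12.7 to 35.0 CPM in the other KO mice and 22.4 to 34.5 CPM in Het. Cell cycle genes summed to 135 CPM there, 53.6 to 78.7 CPM in the other KO mice and 66.9 to 73.9 CPM in Het. No gene in either list had an unadjusted p under 0.05 in edgeR. A comparison of KO with WT shares the WT libraries, so it is no second measurement of these differences. The 3 genes higher in KO with the smallest p were Raet1e, Creb3l3 and Hnrnpa3, and the 3 lower were Spryd7, Mal2 and Hsd11b2. Mal2, a protein of apical transport, read 19.3, 21.9 and 18.3 CPM in Het and 9.88 to 14.8 CPM in KO. Raet1e had 1 count in the Het libraries and 27 in KO. Hsd11b2 had 25 and 7, so both rest on few reads. Spryd7 read 5.44, 5.87 and 4.79 CPM in Het and 2.21 to 3.42 CPM in KO, with WT at 2.51 to 3.43 CPM.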

How the data were processed

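RNA sequencing of pancreas tail pieces was analysed. The authors deposited raw counts per gene symbol, 1 column per mouse. Per the labels' protocols, frozen tissue was pulverised, RNA was column-purified and stranded mRNA libraries were made. Per the submitters' processing notes, DRAGEN, STAR, Cufflinks and the mm10 genome were used, with no roles or versions. The counting tool, its annotation and its use of strand are not given in the sources used here, so genes that overlap others and genes with near-identical copies are uncertain. The numbers are of mice whose tissue was sampled once, so p-values cover the spread between mice of 1 genotype.

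The 2 entries that name no gene were left out. They took 2.73% to 8.42% of all counts in the 6 libraries. Genes were tested with edgeR 4.0.16 in R 4.3.3 (filterByExpr with a minimum count of 10, TMM factors, robust quasi-likelihood test, two-sided, no covariates) in 1 fit over all 10 libraries, with Benjamini-Hochberg adjusted p-values (threshold 0.05). Standard errors come from the quasi-F statistic. Alternatives used DESeq2 1.42.0, limma 3.58.1 and other filters and scalings. The code was tested on simulated data. Single values per mouse were compared by exact permutation tests (two-sided). At this depth 3 counts, the limit a count of 0 allows, correspond to 0.0501 to 0.280 scaled CPM, for counting error only. Positions and sequences come from RefSeq tables of GRCm38.p6, matched by symbol; promoters were found for 59 of 81 tested ribosomal protein genes.

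The members and the 25 gene lists were chosen with earlier results of these data known, and 2 lists (respiratory chain, mitochondrial ribosomal proteins) were added after values were seen. Named genes are Insr, Igf1r, list members, the 10 separated genes in each direction with the smallest p, the 5 in each direction with the largest fold change at group means of at least 5 CPM, the 3 in each direction with the smallest p in KO against Het and the 5 with the most counts. Genes called by DESeq2 without WT-2404 were named after their values were seen. The results of some genes are not reported here.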

Additional observations from a re-analysis of the deposited data

How the results depend on the processing

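Counts of genes that differed between Het and WT at an adjusted p under 0.05 depended on the tool, the scaling and 1 library. Instead of 0 by edgeR, there were 400 with DESeq2, 66 with DESeq2 without WT-2404 (chosen after seeing the data) and 3125, all lower, with library size alone, which shifts the median of all genes by -1.36 (log2). Values for library size alone are given relative to that median. Leaving out 1 library at a time gave 0 to 1158 genes, 1158 without WT-2067 and 0 without any other. RLE factors, both other count filters, limma with sample quality weights, the 6 libraries alone and scaling outside the enzyme list, with and without WT-2404, gave 0. KO against Het gave 0 under the alternatives run. The cause of these differences was not tested.

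Of 432 alternative list medians, 12 turned, 8 kept their sign but moved by more than the SD between the WT libraries' mean log2 levels of the list, and 412 moved by less than that SD. The SD is wide because the WT libraries differ, so the 412 include large moves, such as the macrophage median from -1.70 to -0.88 without WT-2404, the enzyme median from 1.23 to 2.14 without WT-2067 and the endothelial median from 0.20 to 0.05 without WT-2067. The receptor and adaptor median turned to 0.00540 with at least 50 counts, 0.00489 with scaling outside enzymes and 0.0238 with that scaling without WT-2404, and ranged from -0.17 to 0.0221 with 1 library left out. The lipid median ranged from -0.13 to 0.0461, and the Reg median from -0.0861 to 0.86, with -0.0953 by DESeq2 and -0.0770 with scaling outside enzymes, both without WT-2404. The nerve median ranged from -0.46 to 0.155, and was 0.167 with at least 50 counts. The amylase difference ranged from -0.00348 to 0.0240 percentage points.

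Over the named genes, 1880 alternative values kept their direction and side of the threshold, 167 newly passed it and 31 turned, all in genes whose groups overlapped. With 1 library left out, log2 fold changes ranged from -0.17 to 0.32 for Irs1, -0.0485 to 0.59 for Rpl29, -0.65 to 0.50 for Rpl30, -0.34 to 0.0513 for Rpl34, -0.57 to 0.18 for Rps27, -0.37 to 0.79 for Rbpjl, -0.12 to 0.12 for Dcn, -0.83 to 0.0253 for Reg3a, -0.44 to 0.45 for Reg3b and -0.62 to 0.32 for Reg3g. With library size alone they turned to 0.0319 for Rpl30, 0.0856 for Rpl34, 0.0317 for Rps27, 0.0544 for Reg3b and 0.0521 for Reg3g. With sample weights they turned to -0.14 for Irs1, -0.14 for Rbpjl, 0.0672 for Dcn and 0.15 for Reg3b. DESeq2 without WT-2404 gave -0.0101 for Irs1, -0.40 for Rbpjl and 0.0905 for Dcn, and scaling outside enzymes without it -0.37 for Rbpjl and 0.12 for Dcn.

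No paired analysis was possible because the numbers in the labels are mouse numbers and none is shared between groups. Genes with few counts, such as Ankrd1 with 12 and Raet1e with 1 in Het, are limited by depth. With 3 mice in each group and WT mice that differ in enzyme share, genotype and tissue make-up cannot be told apart.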

Other observations

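Mitochondrial genes encoded in the nucleus were more often higher in Het. Both lists were added after values were seen, so their counts describe and support nothing further. Of 78 respiratory chain and ATP synthase genes, 76 had a positive fold change and 52 were separated higher, beside 11.3% of all genes, with a median of 0.55, and 0.45 without WT-2404. Ndufb9, of complex I, read 22.7, 37.1 and 54.1 CPM in WT and 116, 84.5 and 74.8 CPM in Het. Uqcrh, of complex III, read 38.3, 58.3 and 71.7 CPM in WT and 142, 95.9 and 114 CPM in Het. Atp5a1, the alpha subunit of ATP synthase, overlapped, at 125 to 176 CPM in WT and 171 to 216 CPM in Het. Of 77 mitochondrial ribosomal protein genes, 32 were separated higher and 1 lower, with a median of 0.42, and 0.40 without WT-2404.

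The Reg genes, secreted proteins of injured acinar tissue, did not move as one group. Reg1 read 1754, 9672 and 18192 CPM in WT and 25483, 28414 and 20068 CPM in Het, while Reg3a, Reg3b and Reg3g overlapped. Reg3b read 1923, 1465 and 4060 CPM in WT and 2805, 3254 and 856 CPM in Het. In the KO libraries Reg3b read between 139 and 1718 CPM.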
